A study of Mus musculus with 31 samples.

Results

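MHC class I antigen presentation was followed through 10 genes: H2-K1, H2-D1, B2m, Tap1, Tap2, Tapbp, Psmb8, Psmb9, Psmb10 and Nlrc5. They were chosen by symbol from a table of exon counts, with the transcript of the highest total taken for each symbol, and all 10 were found among the 24470 symbols of that table. RNA-seq covered female mouse dermal fibroblasts in 3 groups of 2 libraries, described by the labels as biological replicates of differentiated cells from a CAST/Ei and 129/Sv/Jae hybrid, grown without treatment. The first group is WT. The second is XaWT XiΔXist, here line 1, whose inactive X chromosome lacks Xist while the active X is intact. The third is XaWT XiΔXist #2, here line 2, another cell line with the same kind of deletion. The labels do not say whether a line is 1 clone, so the deletion and other properties of a line cannot be told apart within 1 line. The study asked how Xist RNA keeps chromatin and genes of the inactive X in their state. All 10 genes lie on autosomes.

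MHC class I molecules show short peptides from proteins made inside a cell to cytotoxic T cells and natural killer cells. Peptides are cut by the proteasome, moved into the endoplasmic reticulum by the TAP transporter, and loaded onto a heavy chain paired with the light chain B2m. Interferons raise most genes of the pathway through IRF and other factors, and NLRC5 acts on their promoters as a transactivator. Fibroblasts carry a low to moderate basal level of class I molecules.

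The bases before the transcription starts show what the promoters of the genes share. The RefSeq promoter table (GRCm38.p6, the build also called mm10) held 8 of the 10 genes, without Tap2 and Nlrc5. The sequences are those of the reference strain, not of the CAST/Ei or 129/Sv/Jae alleles in these cells. Capitals mark matches, on either strand, to letters searched for as an interferon-stimulated response element (GAAANNGAA), a gamma-activated site (TTCNNNGAA), NF-kappaB sites (GGANTTNCC and GGGATTCCC), a cyclic AMP response element core (TGACG) and a CCAAT box (CCAAT). H2-K1 and H2-D1 are shown because their promoters hold the same matches, and Tap1 because it shares its upstream bases with Psmb9. B2m is shown because it alone of the 8 matched the letters GAAANNGAA, and Psmb8 because it alone matched TTCNNNGAA. The windows are H2-K1 at chr17:34000334-34000583 on the minus strand, H2-D1 at chr17:35262844-35263093, B2m at chr2:122147437-122147686, Tap1 at chr17:34187331-34187555 and Psmb8 at chr17:34197945-34198194, the last 4 on the plus strand.
H2-K1: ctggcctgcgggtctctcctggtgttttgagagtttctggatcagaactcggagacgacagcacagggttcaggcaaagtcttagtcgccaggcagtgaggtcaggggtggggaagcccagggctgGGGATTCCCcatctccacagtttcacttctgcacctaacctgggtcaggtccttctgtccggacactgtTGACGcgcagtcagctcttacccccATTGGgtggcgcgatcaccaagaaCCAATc
H2-D1: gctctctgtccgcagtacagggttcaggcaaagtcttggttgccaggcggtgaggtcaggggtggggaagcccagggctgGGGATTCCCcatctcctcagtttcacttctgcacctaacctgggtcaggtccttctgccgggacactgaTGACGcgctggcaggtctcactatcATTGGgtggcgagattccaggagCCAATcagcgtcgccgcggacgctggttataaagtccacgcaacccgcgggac
B2m: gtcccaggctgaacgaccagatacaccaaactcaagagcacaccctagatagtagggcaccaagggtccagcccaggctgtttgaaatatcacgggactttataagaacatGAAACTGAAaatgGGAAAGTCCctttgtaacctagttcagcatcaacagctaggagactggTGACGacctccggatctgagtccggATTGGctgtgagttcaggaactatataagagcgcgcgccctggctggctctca
Tap1: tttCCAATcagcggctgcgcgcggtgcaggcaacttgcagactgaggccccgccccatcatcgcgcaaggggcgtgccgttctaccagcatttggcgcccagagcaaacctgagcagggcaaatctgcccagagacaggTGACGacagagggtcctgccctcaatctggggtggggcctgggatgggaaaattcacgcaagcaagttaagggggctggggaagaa
Psmb8: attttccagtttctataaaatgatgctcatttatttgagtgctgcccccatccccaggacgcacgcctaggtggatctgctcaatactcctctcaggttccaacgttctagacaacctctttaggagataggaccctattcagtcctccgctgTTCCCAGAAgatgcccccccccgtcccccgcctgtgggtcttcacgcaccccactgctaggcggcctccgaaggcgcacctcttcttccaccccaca

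The classical heavy chain genes H2-K1 and H2-D1 each held GGGATTCCC, a match found in 0.353% of 32851 RefSeq promoter windows of 300 bases (250 before the start and 50 after it). In both, TGACG began 69 bases after the first base of that match and a reversed CCAAT box began 94 bases after it. Laid against each other at this match without gaps, 180 of 254 bases were equal (70.9%). GAAANNGAA, found in 8.56% of all windows, was present in B2m, where it began 139 bases before the start. B2m also held GGANTTNCC (3.95% of all windows). TTCNNNGAA (8.3% of all windows, and the same on both strands) was present in Psmb8. TGACG was present in 5 of the 8 promoters (B2m, H2-D1, H2-K1, Psmb9 and Tap1), against 20.8% of all windows, and CCAAT in 6 (the same 5 and Tapbp), against 37.4%. No 2 matches overlapped. Psmb9 and Tap1 start 225 bases apart on opposite strands, so their windows share 275 bases and a match in one is often a match in the other. Psmb10 held none of these letters. A match describes letters only, and a promoter without one may hold another form of the element. Binding of a factor was not measured.

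Xist RNA was near absent in both lines, at 633 and 429 CPM (counts scaled for library size and composition) in the WT libraries, 1.08 and 0.273 in those of line 1, and 0.969 and 0.282 in those of line 2. Counts used ranged from 3812307 to 7067518 per library, and in each group replicate 1 was the shallower. Of 12 fibroblast markers 12 were tested, with a summed level of 4950 to 7880 CPM in every library, so the labelled cell type had its markers. Of 17 leukocyte and antigen presenting cell markers that the file listed, 13 had at most 3 counts in every library, among them Ptprc, which encodes the pan-leukocyte surface protein CD45. The class II genes H2-Aa, H2-Ab1 and H2-Eb1 also had at most 3 counts in every library. Line 1 replicate 1 was the highest of the 6 libraries for each of the 10 genes, and the line 1 fold changes of the 9 genes tested are given with and without it. RNA came from whole cultures, so a change in the number of cells that make an RNA and a change in RNA per cell cannot be told apart.

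Pathway genes differed widely in level in WT cells. On a scale of CPM per kb of exon, which allows genes to be compared, WT means ran from B2m at 109, Tapbp at 63.8 and H2-K1 at 61.8 through H2-D1 at 35.4, Psmb10 at 33.2, Tap2 at 10.4 and Tap1 at 5.69 down to Psmb8 at 0.92, Nlrc5 at 0.725 and Psmb9 at 0.513. The WT libraries of Tapbp and H2-K1 overlapped on this scale, as did those of H2-D1 and Psmb10, and those of Psmb8, Nlrc5 and Psmb9, so the order within each of these sets is not settled. In line 1 Tap1 reached a mean of 40.9 and Psmb9 one of 11.5, while B2m at 148 and Tapbp at 125 were again the highest. In line 2 Nlrc5 was the lowest, at 0.228 CPM per kb.

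**Figure D1:**
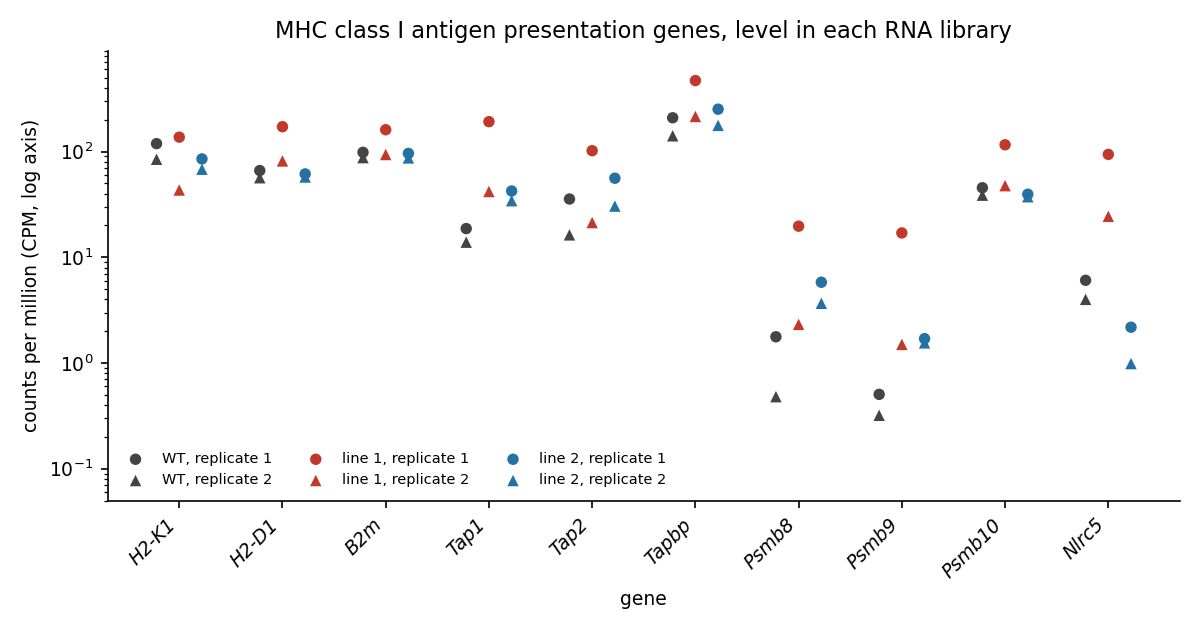
Level of each gene in each of the 6 libraries, in CPM on a log axis; circles are replicate 1 and triangles replicate 2 of WT (grey), line 1 (red) and line 2 (blue). Line 1 replicate 1 is the highest library for each of the 10 genes. Nlrc5 is the gene whose line 2 libraries both lie below both WT libraries, a position held by 23.9% of all genes tested.

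In line 1, RNA of the transactivator Nlrc5 and of the peptide transporter subunit Tap1 rose, and RNA of the other genes was not called changed at an adjusted p under 0.05 (edgeR's quasi-likelihood test, Benjamini-Hochberg over 12910 genes). Of the 9 genes tested 2 were called higher, where 6.75% of all genes tested were, and 0 were called lower, where 7.55% were. The number called was 0 without WT replicate 1 or WT replicate 2, and 1 (Nlrc5) without line 2 replicate 1 or 2. Over all genes tested the number called also fell in each of these fits. By unadjusted p under 0.05 the number with all libraries was 4 (H2-D1, Tap1, Psmb8 and Nlrc5). At least 14.3% of all genes tested pass that cut, since every gene called in either direction does. The median log2 fold change of the 9 was 1.04, against 0.005 over all genes tested. Both line 1 libraries lay above both WT libraries for 6 of these 9, a position held by 25.4% of all genes tested. In line 2, 0 of 9 were called in either direction, where 3.58% of all genes were, and 0 at an unadjusted p under 0.05 (DESeq2 also called 0). Both line 2 libraries lay above both WT libraries for 2 of the 9 and below them for 1, where 24.9% and 23.9% of all genes tested did.

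**Figure D2:**
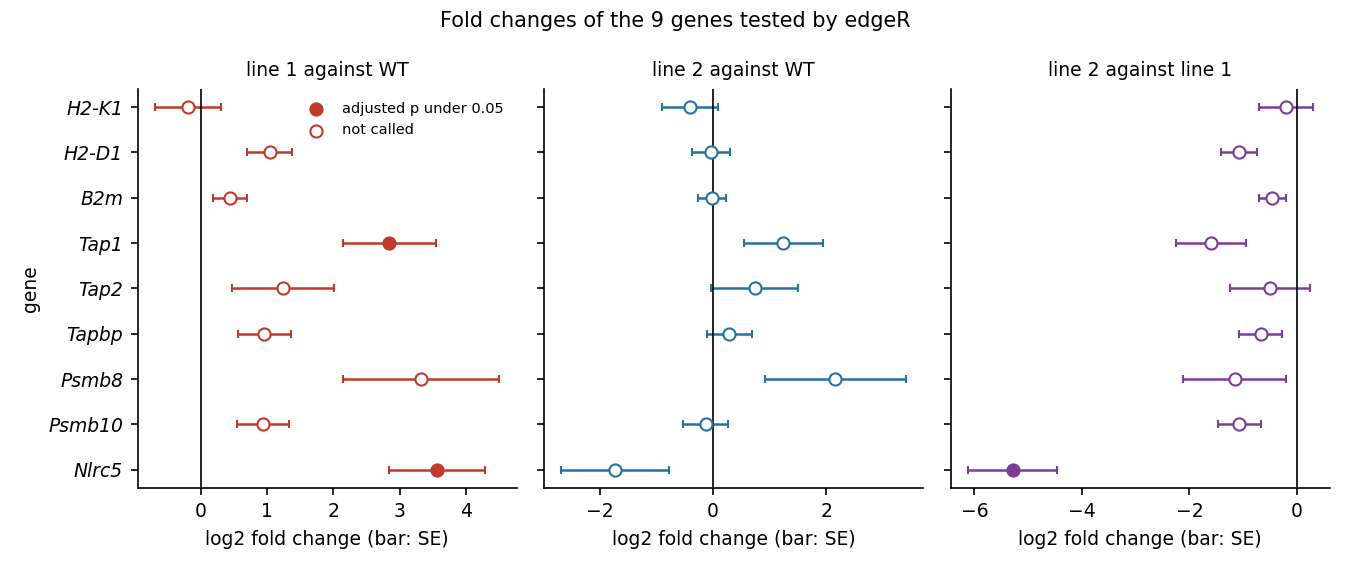
Log2 fold change with its standard error (horizontal bar) of the 9 genes tested, for line 1 against WT, line 2 against WT and line 2 against line 1; filled points had an adjusted p under 0.05. Nlrc5 and Tap1 are filled in the first panel, no gene in the second, and Nlrc5 at -5.29 in the third.

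Nlrc5, at chr8:94472763-94527272, encodes the NLR-family protein that acts as the transactivator of class I genes. It had 6.06 and 4.00 CPM in the WT libraries, 94.1 and 24.4 in line 1, and 2.18 and 0.987 in line 2. The 3 groups did not overlap: both line 1 libraries were above WT and both line 2 libraries below it. Line 1 exceeded WT by 3.56 on the log2 scale (SE 0.72, 95% interval 1.82 to 5.30, adjusted p = 0.024 by edgeR). The call did not hold without WT replicate 1 (3.85, adjusted p = 0.0936 by edgeR) or without WT replicate 2 (3.27, adjusted p = 0.137), where the 1 WT library left is assumed to vary as the other groups do. Without line 1 replicate 1, the library with the highest Nlrc5 level, the log2 fold change was 2.31 (adjusted p = 0.0109 by edgeR). The fold change for line 2 was -1.73 on that scale (SE 0.95, 95% interval -4.02 to 0.56, adjusted p = 0.516 by edgeR), from 9 and 7 counts against 24 and 25 in WT. The direct comparison of line 2 with line 1 gave -5.29 (SE 0.83, adjusted p = 0.0106 by edgeR). It was -4.73 (adjusted p = 0.0848 by edgeR) without line 2 replicate 2.

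TAP is a heterodimer of TAP1 and TAP2 that pumps cytosolic peptides into the endoplasmic reticulum. Tap1, at chr17:34187556-34197225, had 18.7 and 13.9 CPM in the WT libraries, 192 and 41.9 in those of line 1, and 42.4 and 34.3 in those of line 2. Both lines lay above WT in both libraries, and line 1 replicate 1 stood well above the other 5. The log2 fold change was 2.84 for line 1 (SE 0.70, adjusted p = 0.0454 by edgeR) and 1.24 for line 2 (SE 0.70, 95% interval -0.45 to 2.93, adjusted p = 0.529). The line 1 call lay close to the threshold and was lost when any WT or line 2 library was left out (adjusted p from 0.0733 to 0.21 by edgeR, log2 fold changes from 2.63 to 3.05). It was also lost with line 1 and WT fitted alone (adjusted p = 0.076). Without line 1 replicate 1 the value was 1.37 (adjusted p = 0.0158 by edgeR). Without line 1 replicate 1 or 2, Tap1 was called in line 2 (adjusted p = 0.0304 and 0.0243 by edgeR, log2 fold changes 1.24 and 1.25), as with line 2 and WT fitted alone (adjusted p = 0.0332).

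Tap2, at chr17:34204479-34216321, had smaller fold changes than Tap1, a difference that was not tested. Its level was 35.6 and 16.3 CPM in the WT libraries, 102 and 21.3 in those of line 1, and 56.0 and 30.5 in those of line 2. All 3 groups overlapped, since each spanned a wide gap between its 2 libraries. Its fold change on the log2 scale was 1.24 (SE 0.77, adjusted p = 0.372 by edgeR) for line 1 and 0.74 (SE 0.77, adjusted p = 0.805) for line 2, and in line 1 it was -0.26 without line 1 replicate 1 and 2.02 (adjusted p = 0.0474 by edgeR) without line 1 replicate 2. Tapbp encodes tapasin, which bridges TAP and the heavy chain during loading, and lies at chr17:33919478-33929290. It had 209 and 141 CPM in the WT libraries, 470 and 215 in those of line 1, and 252 and 177 in those of line 2. Line 1 was above WT in both libraries, and line 2 overlapped WT. The log2 fold change of Tapbp in line 1 was 0.96 (SE 0.40, adjusted p = 0.183 by edgeR). With replicate number as a block it was 0.89 (SE 0.15, adjusted p = 0.00604 by edgeR), and DESeq2 gave 0.96 (adjusted p = 0.0481). Without line 1 replicate 1 the Tapbp value was 0.29 (adjusted p = 0.517 by edgeR).

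The immunoproteasome subunits Psmb8, Psmb9 and Psmb10 take the place of 3 catalytic subunits in the standard proteasome. Psmb8, at chr17:34198195-34201454, had 1.77 and 0.48 CPM in the WT libraries (7 and 3 counts), 19.7 and 2.32 in those of line 1 (73 and 17 counts), and 5.81 and 3.67 in those of line 2 (24 and 26 counts). Both libraries of each line were above both WT libraries. Its log2 fold change was 3.32 (SE 1.18, adjusted p = 0.127 by edgeR) for line 1 and 2.16 (SE 1.25, 95% interval -0.86 to 5.18, adjusted p = 0.543) for line 2. The line 1 difference of Psmb8 was called with the replicate block (3.08, adjusted p = 0.0154 by edgeR) and by DESeq2 (3.33, adjusted p = 0.01), and was 1.19 (adjusted p = 0.302 by edgeR) without line 1 replicate 1. Psmb9, at chr17:34182099-34187330 beside Tap1, had 2 and 2 counts in the WT libraries, 63 and 11 in those of line 1, and 7 and 11 in those of line 2. It did not pass the filter on low counts, and without that filter its log2 fold change was 4.34 (SE 0.89, adjusted p = 0.00157 by edgeR) for line 1 and 1.98 (SE 1.06, adjusted p = 0.545) for line 2.

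Psmb10, at chr8:105935728-105938392, was the abundant member of this set of 3. It had 45.5 and 38.7 CPM in the WT libraries, 116 and 47.6 in those of line 1, and 39.5 and 37.4 in those of line 2. Line 1 lay above WT, narrowly in replicate 2, and line 2 overlapped WT. On the log2 scale its fold change was 0.94 (SE 0.39, adjusted p = 0.184 by edgeR) for line 1 and -0.13 (SE 0.40, adjusted p = 0.963) for line 2. The log2 difference of line 2 from line 1 was -1.07 (adjusted p = 0.156 by edgeR), which the replicate block (-0.95, adjusted p = 0.0464) and DESeq2 (-1.08, adjusted p = 0.0411) called. With line 1 replicate 1 left out, Psmb10 differed by 0.18 between line 1 and WT (adjusted p = 0.502 by edgeR) and by -0.31 between line 2 and line 1 (adjusted p = 0.303).

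The ratio of each immunoproteasome subunit to its constitutive counterpart is a within-library value that scaling between libraries does not touch. Psmb8 RNA per kb was 4.45% and 1.4% of that of Psmb5 in the WT libraries, 40.9% and 5.31% in those of line 1, and 14.5% and 9.03% in those of line 2. Psmb9 was 0.814% and 0.527% of Psmb6 in the WT libraries, 26.9% and 2.7% in those of line 1, and 2.65% and 2.57% in those of line 2. For both pairs all 4 libraries of the lines were above both WT libraries. Psmb10 was 48.0% and 44.8% of Psmb7 in the WT libraries, 135% and 57.1% in those of line 1, and 40.9% and 43.8% in those of line 2, so that line 1 lay above WT and line 2 below it. The mean log2 ratio of the 3 pairs was -4.56 ± 0.57 (SD, n = 2 in each group) for WT, -2.17 ± 1.77 for line 1 and -3.21 ± 0.15 for line 2. The exact two-sided permutation test gave p = 0.333 for each line against WT, the smallest p that 2 libraries against 2 allow. The constitutive subunits varied less over the 6 libraries: Psmb5 ranged from 24.5 to 34.3 CPM, Psmb6 from 71.5 to 82.4 and Psmb7 from 63.6 to 73.7. By edgeR, with the replicate block and by DESeq2, 0 of the 14 genes of the constitutive core were called in either line, and 0 had an unadjusted p under 0.05 in edgeR. Over all genes tested these 3 fits called 14.3%, 32.4% and 14.4% in line 1. In line 2 edgeR called 3.58% and the block 12.1%, so 0 of 14 says little for that line.

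**Figure D3:**
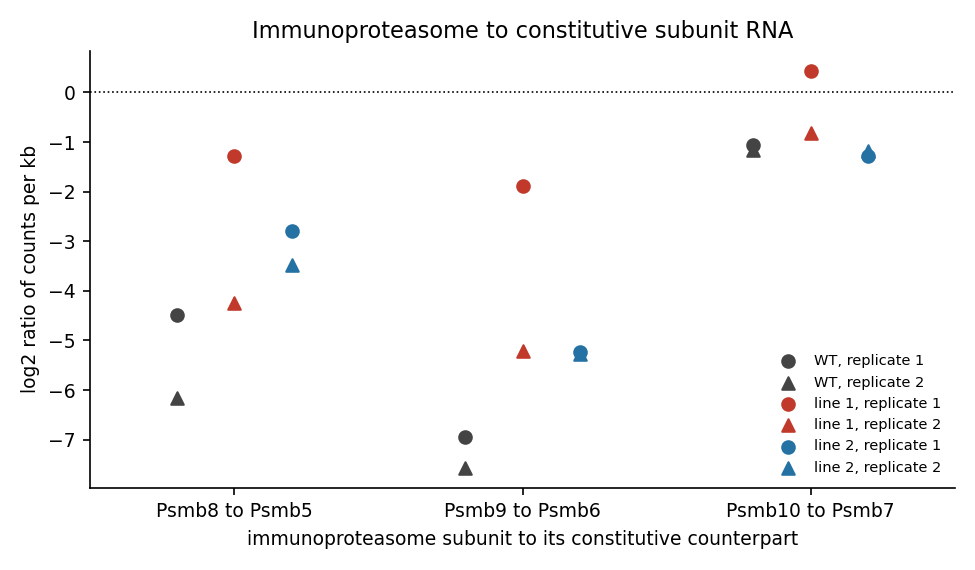
Log2 ratio of counts per kb of each immunoproteasome subunit to its constitutive counterpart in each library; circles are replicate 1 and triangles replicate 2, and the dotted line marks equal RNA. Line 1 replicate 1 is the highest library for each pair, at 0.44 for Psmb10 to Psmb7, and the WT libraries are the lowest for Psmb8 to Psmb5 and Psmb9 to Psmb6.

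The heavy chain genes H2-K1 and H2-D1, whose products hold the peptide, differed in their values in line 1. H2-K1, at chr17:33996012-34000333, had 119 and 84.6 CPM in the WT libraries, 137 and 43.3 in those of line 1, and 85.3 and 68.1 in those of line 2. Line 1 held both the highest and the lowest of the 6 values. Its log2 fold change was -0.19 (SE 0.50, 95% interval -1.41 to 1.02, adjusted p = 0.864 by edgeR) for line 1 and -0.41 (SE 0.50, adjusted p = 0.851) for line 2, and without line 1 replicate 1 the line 1 value was -1.23 (adjusted p = 0.0267). H2-D1, at chr17:35263094-35267497, had 66.2 and 56.6 CPM in the WT libraries, 172 and 81.6 in those of line 1, and 61.5 and 57.5 in those of line 2. Line 1 was above both other groups, and line 2 overlapped WT. The log2 fold change of H2-D1 was 1.04 (SE 0.34, adjusted p = 0.0983 by edgeR) for line 1, 0.96 (SE 0.23, adjusted p = 0.0201) with the replicate block, and 1.03 (adjusted p = 0.018) by DESeq2. It was 0.41 (adjusted p = 0.12 by edgeR) without line 1 replicate 1.

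Counts of H2-K1 exceeded those of H2-D1 by 1.79 and 1.49 times in WT and by 1.39 and 1.18 times in line 2. In line 1 the ratio was 0.797 and 0.53, so both line 1 libraries had more H2-D1 than H2-K1 counts and lay below the other 4. Class I heavy chain genes are near copies of each other, and the hybrid cells carry alleles that differ from the reference, so reads could be split between them in ways the counts do not show. H2-D1 shares 3608 bases of its model with H2-L, which had 46.5 and 38.2 CPM in the WT libraries, 122 and 55.5 in those of line 1, and 42.6 and 38.8 in those of line 2, and these counts are not separate evidence. B2m, at chr2:122147687-122153082, encodes the light chain that all of these heavy chains need. It had 98.5 and 87.7 CPM in the WT libraries, 161 and 93.8 in those of line 1, and 96.2 and 87.1 in those of line 2. Line 1 replicate 1 was high and the other 5 libraries lay close together. The log2 fold change of B2m was 0.44 (SE 0.25, 95% interval -0.17 to 1.05, adjusted p = 0.33 by edgeR) for line 1 and -0.02 (SE 0.25, 95% interval -0.63 to 0.59, adjusted p = 0.992) for line 2, and for line 1 it was 0.01 without line 1 replicate 1.

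Between the lines, 1 of the 9 genes was called lower in line 2 than in line 1 (Nlrc5), where 5.76% of all genes tested were, and 0 higher, where 6.87% were. Leaving out line 1 replicate 2 raised the number called, and leaving out line 2 replicate 2 lowered it. The number called over all genes tested moved in the same direction in both of these fits. The Nlrc5 difference was then -5.99 and -4.73. Of the 9 genes, 4 had an unadjusted p under 0.05 with all libraries (H2-D1, Tap1, Psmb10 and Nlrc5). At least 1630 of all 12910 genes tested pass that cut, since every gene called does. The median log2 difference of the 9 was -1.07, against -0.008 over all genes tested.

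Fits that treat replicate number as a block called more of the genes. In line 1, 5 of 9 were then higher (H2-D1, Tap1, Tapbp, Psmb8 and Nlrc5), where the block called 16.3% of all genes higher. DESeq2 called these 5 as well, where it called 6.75% of all genes higher. Between the lines the block called 4 lower (H2-D1, Tapbp, Psmb10 and Nlrc5; 13.8% of all genes) and DESeq2 3 (H2-D1, Psmb10 and Nlrc5; 6.07%). For line 2 against WT the block called 0 of 9, and 12.1% of all genes.

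The libraries of a group differed in the same direction for all of these genes. All 10 were higher in replicate 1 than in replicate 2 of WT, of line 1 and of line 2. Over the 10 the median log2 difference was 0.53 for WT, 1.80 for line 1 and 0.32 for line 2, against 0.00, 0.03 and 0.00 over all genes tested. In line 1 it ran from 0.78 for B2m to 3.50 for Psmb9. Compared within replicate 1, line 1 exceeded WT 10.3-fold for Tap1, 33.7-fold for Psmb9 and 15.5-fold for Nlrc5. Within replicate 2 the same values were 3.01, 4.69 and 6.11. Without line 1 replicate 2 the line 1 log2 fold changes were 3.58 for Tap1, 4.26 for Nlrc5 and 0.43 for H2-K1. Without line 1 replicate 1 they were 1.37, 2.31 and -1.23. Replicate 1 was also the shallower library of each group, so number and depth cannot be told apart, and the part of either in these differences was not tested.

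**Figure D4:**
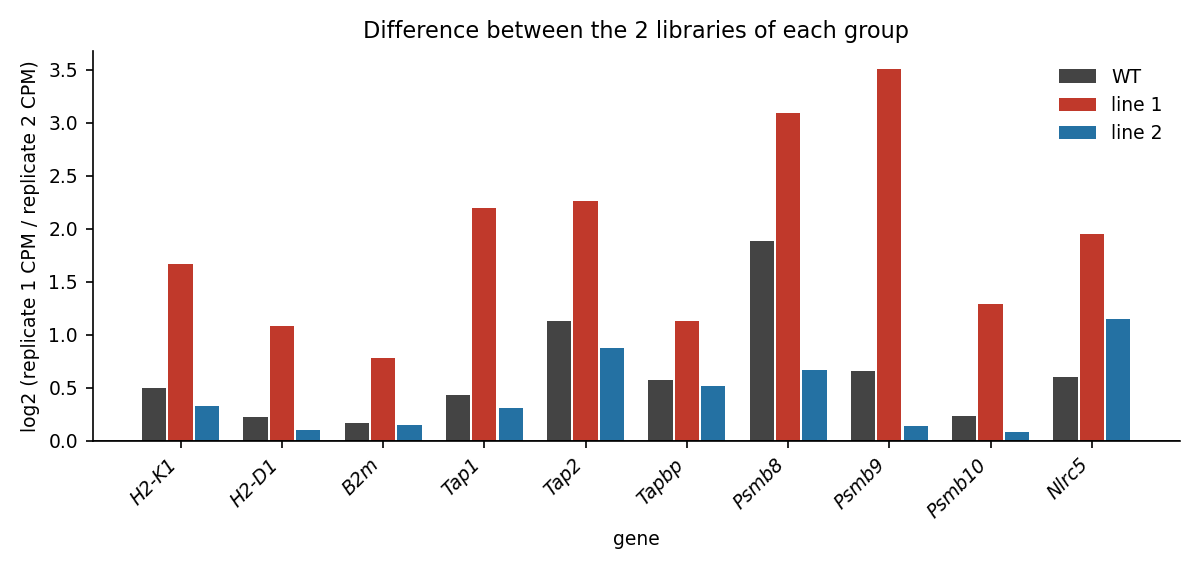
Log2 ratio of replicate 1 to replicate 2 CPM for each gene in WT (grey), line 1 (red) and line 2 (blue). All bars lie above 0, and the line 1 bars are the tallest for each gene, from 0.78 for B2m to 3.50 for Psmb9.

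Genes around the pathway were described by lists. Of 28 nonclassical class I and class I-like genes 12 were tested. In line 1, 5 of these (41.7%) were called higher and 0 lower, where 6.75% and 7.55% of all genes tested were (median log2 fold change 1.24). H2-T24 had 2.27 and 1.60 CPM in WT and 57.6 and 15.4 in line 1 (log2 fold change 4.23, SE 0.74, adjusted p = 0.0145 by edgeR). H2-T10 had 2.78 and 1.28 in WT and 35.4 and 16.9 in line 1 (3.73, SE 0.54, adjusted p = 0.00752). H2-T22 (1.42) and Mr1 (0.76), which presents vitamin B metabolites to mucosal T cells, rose as well, and so did H2-T9 (1.51), named here after its values were seen. H2-T9 and H2-T22 share 4284 bases of their models, so their counts are not separate. In line 2 none of the 12 were called, where 3.58% of all genes tested were. Against line 1, H2-T9, H2-T10, H2-T22 and H2-T24 were lower in line 2 (-1.51, -1.90, -1.47 and -4.37), where 5.76% of all genes tested were called lower. With line 1 and line 2 fitted alone, H2-T9 (adjusted p = 0.068 by edgeR) and H2-T10 (adjusted p = 0.0569) were not called. H2-T10 in line 2 was 1.83 above WT (adjusted p = 0.193 by edgeR, and 0.0135 with the replicate block), as was Mr1 at 0.65 (adjusted p = 0.116, and 0.0244 with the block).

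Of 14 tested genes that load and trim peptides, 1 (7.14%, near the 6.75% of all genes) was called higher in line 1 and 0 lower (median 0.00). That gene was Erap1, the endoplasmic reticulum aminopeptidase that trims peptides to their final length. It had 15.9 and 21.8 CPM in the WT libraries, 50.5 and 72.1 in those of line 1, and 27.6 and 43.0 in those of line 2, with replicate 2 above replicate 1 in each group, unlike the 10 genes above. Its log2 fold change was 1.70 (SE 0.31, adjusted p = 0.0163 by edgeR) for line 1 and 0.90 (adjusted p = 0.233, and 0.00689 with the replicate block) for line 2. The chaperones of the loading complex, named after their values were seen, spanned 280 to 384 CPM for Calr, 326 to 404 for Canx and 233 to 299 for Pdia3 over the 6 libraries.

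Among 10 proteasome activators and assembly factors, 1 (10%, against 6.75% of all genes) was called higher in line 1 and 0 lower (median 0.12). Psme2, a subunit of the PA28 activator, had 3.28 and 3.20 CPM in the WT libraries, 13.8 and 7.92 in those of line 1, and 6.06 and 4.37 in those of line 2. Its log2 fold change was 1.71 (SE 0.38, adjusted p = 0.0326 by edgeR) for line 1 and 0.66 (adjusted p = 0.567) for line 2. The other PA28 subunit gene Psme1, named after its values were seen, had 32.3 and 19.4 CPM in the WT libraries, 87.6 and 38.2 in those of line 1, and 37.8 and 26.5 in those of line 2.

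Of 18 tested regulators of class I transcription, 3 (16.7%, against 6.75% of all genes) were called higher in line 1 and 0 lower, with a median of 0.01. Irf9, a DNA-binding factor of the interferon response, had 36.9 and 29.1 CPM in the WT libraries, 192 and 109 in those of line 1, and 51.6 and 33.4 in those of line 2 (line 1 log2 fold change 2.19, SE 0.34, adjusted p = 0.00999 by edgeR). Stat2, a transcription factor of that response, had 102 and 64.3 in the WT libraries, 528 and 194 in those of line 1, and 125 and 72.9 in those of line 2 (2.12, SE 0.53, adjusted p = 0.0471). Irf1, an interferon-induced activator of class I promoters, was 1.11 above WT in line 1 (adjusted p = 0.0727, and 0.00177 with the replicate block). Rfx5, a constitutive factor of the same promoters, differed by 0.04 (adjusted p = 0.938). In line 2 none of the 18 were called, where 3.58% of all genes tested were.

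Other genes of the same region of chromosome 17 were not called by edgeR or DESeq2. Tap1, Tap2, Psmb8 and Psmb9 lie within 34.2 kb, and Tapbp and H2-D1 span 1348 kb. Of 34 other genes of the region that were tested, 0 were called in line 1 and 0 in line 2 by either tool, with 3 and 0 at an unadjusted p under 0.05 (median log2 fold changes -0.07 and -0.08). Over all genes tested, 14.3% were called in line 1 by edgeR and 14.4% by DESeq2, and 3.58% in line 2 by edgeR. With the replicate block 5 of the 34 were called in line 1, where it called 32.4% of all genes. MHC class II RNA was scarce, with 3 of 12 genes tested. H2-DMb1, which encodes part of a class II peptide exchange factor, had 6.57 and 4.00 CPM in the WT libraries, 0.811 and 0.273 in those of line 1, and 13.1 and 11.3 in those of line 2, and so fell by 3.41 on the log2 scale in line 1 (SE 0.55, adjusted p = 0.0113 by edgeR).

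**Figure D5:**
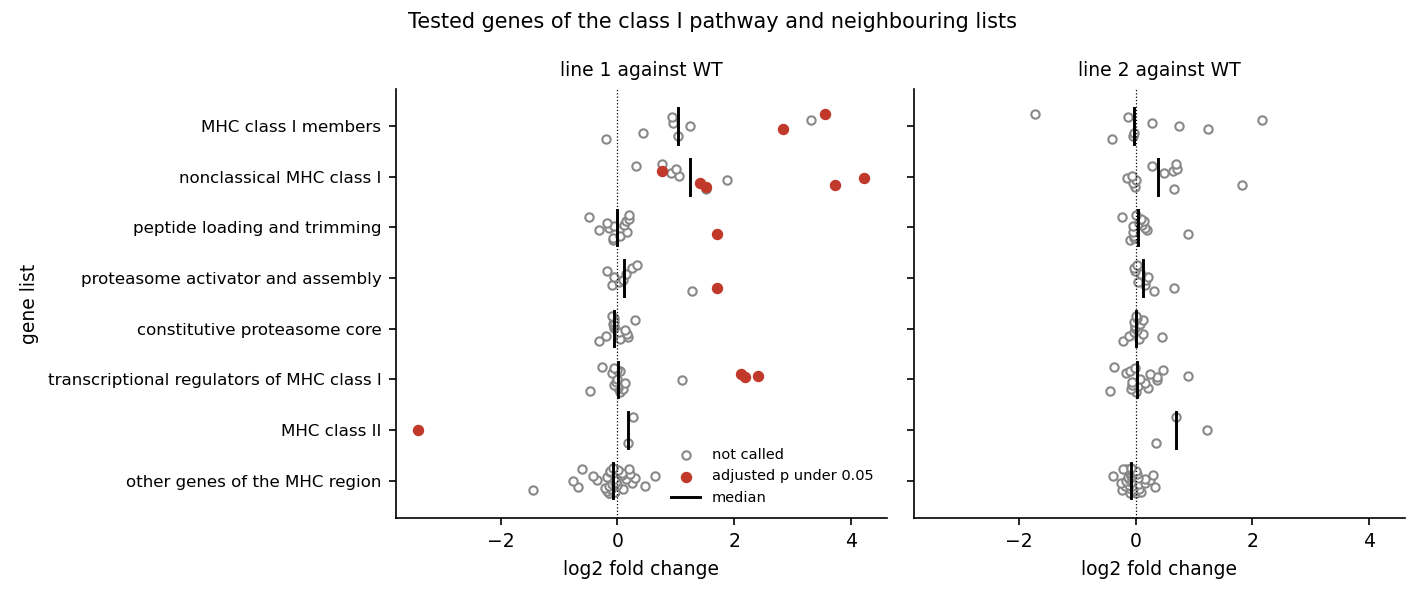
Log2 fold change of each tested gene of 8 lists in line 1 (left) and line 2 (right) against WT; filled points had an adjusted p under 0.05, open points did not, and vertical bars are list medians. In line 1 the median of the class I genes is 1.04 and that of the nonclassical genes 1.24, while the constitutive proteasome core has -0.05, and no point is filled for line 2.

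The number called over these lists depended on which libraries were fitted. When a library was left out, the number called over all genes tested moved in the same direction, in line 1 and between the lines. Over the lists just described 11 genes were called in line 1, 0 in line 2 and 6 between the lines. In the order of the text, with the constitutive core last, the lists held 12, 14, 10, 18, 34, 3 and 14 tested genes. Over all 12910 genes tested, edgeR called 14.3% in line 1, 3.58% in line 2 and 1630 genes between the lines. Without WT replicate 1 or WT replicate 2 the line 1 number was 2 or 1, without line 2 replicate 1 or 2 it was 6 or 7, and without line 1 replicate 1 or 2 it was 13 or 19. Stat2 was not called without line 1 replicate 1 (1.22, adjusted p = 0.0699 by edgeR), H2-DMb1 without line 1 replicate 2 (-2.62, adjusted p = 0.0516), nor Mr1 by DESeq2 (0.76, adjusted p = 0.0607). The replicate block gave 25, 4 and 23, where it called 32.4% of all genes in line 1, 12.1% in line 2 and 3506 of 12910 between the lines. Between the lines the number was 16 without line 1 replicate 2, and 2 or 1 without line 2 replicate 1 or 2.

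Markers of other cell types were low but not level between groups. The summed level of the 17 leukocyte and antigen presenting cell markers was 20.7 and 19.2 CPM in the WT libraries, 30.5 and 29.8 in those of line 1, and 27.6 and 30.6 in those of line 2. Of the 3 that were tested Cd14 rose in line 1 (2.18, adjusted p = 0.0132 by edgeR) and Lyz2 fell by 1.91 on the log2 scale (adjusted p = 0.0307), while 13, Ptprc among them, had at most 3 counts in every library. The third, Cd68, had 2.27 and 2.08 CPM in the WT libraries, 13.0 and 4.91 in those of line 1, and 2.67 and 2.26 in those of line 2. Its line 1 log2 fold change was 1.98 (adjusted p = 0.0605 by edgeR, 0.0105 with the replicate block and 0.048 by DESeq2), and line 1 replicate 1 was its highest library, as for the class I genes. For Cd14 the line 1 libraries had 10.8 and 19.9 CPM, with replicate 2 the higher. Summed endothelial markers were at 12.4 and 10.7 CPM in WT and 3.24 to 6.78 in the lines, keratinocyte markers at 49.0 and 50.4 in WT and 9.69 to 18.9 in the lines, and melanocyte and Schwann markers at 29.6 and 21.0 in the WT libraries, 66.5 and 63.7 in those of line 1, and 19.4 and 14.9 in those of line 2. At most 3 counts in every library were held by 2 of 7 endothelial markers (Pecam1 among them) and 5 of 8 keratinocyte markers (Krt5, Krt14 and Epcam among them). The same held for 5 of 9 melanocyte and Schwann markers (Tyr and Sox10 among them). Other markers of these lists were tested, and edgeR called the endothelial genes Kdr and Erg lower in both lines. The keratinocyte gene Dsp was called lower in both lines and Trp63 in line 1. Mitf and Ngfr were called in line 1, 1 higher and 1 lower. The fibroblast gene Dcn, a matrix proteoglycan, rose in line 1 (2.19, adjusted p = 0.0215 by edgeR). The part of these differences in the class I results was not tested.

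Some other genes followed the class I profile closely across the 6 libraries. The profile is the mean of the log2 CPM of the 9 tested genes, each centred on its own mean. Edem2, a mannosidase-like protein of the endoplasmic reticulum (Pearson r = 0.998), Skiv2l, an RNA helicase encoded in the MHC region (0.996), Magi1, a junction scaffold (0.996), Plekhg5, a guanine nucleotide exchange factor (0.993), Dcaf8, a ubiquitin ligase adaptor (0.992), and Rtf1, a subunit of the Paf1 complex (0.991), were most like it among 10649 genes. Of these genes 405 (3.8%) had r above 0.9, and the 6 points share depth and replicate number, so r is a description over 6 libraries. Edem2 ranged from 36 to 70.3 CPM over the libraries and Rtf1 from 105 to 123.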

How the data were processed

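RNA was measured in 6 libraries of total RNA depleted of ribosomal RNA and read as pairs, with a directional second-strand module, per the labels' protocols. The authors deposited exon values per RefSeq transcript, which are expected counts made with HOMER and not normalized, per the file headers. These values come in steps of 0.5. Trim Galore 0.4.1, TopHat2, SAMtools, HOMER, bedtools 2.25.0 and the mm10 build are named in the submitters' processing notes. Whether counting used the strand is not stated in the labels or headers. The other deposited files, which hold X-linked genes and sites, were not used here.

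Of 28972 transcripts, the one with the highest total was kept for each of 24470 symbols. The design had assumed counts, so expected counts were rounded to whole numbers (0.5 upwards). A quasi-likelihood model was fitted to the 6 libraries with edgeR 4.0.16 under R 4.3.3, after filterByExpr and TMM scaling, with a mean per group (12910 genes, 3 residual degrees of freedom, biological coefficient of variation 0.17). A gene was called at a Benjamini-Hochberg adjusted p under 0.05 over all genes tested. CPM values use TMM-scaled library sizes, and log2 CPM a prior count of 2. Totals in the header were 10506118 to 20090463 per library. Where nothing says that replicates were separate cultures, p-values measure the spread between these libraries.

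Replicates 1 and 2 differed in the same way across genes in the 3 groups (Pearson r = 0.54, 0.59 and 0.53), so the numbers were taken to pair libraries, from the data alone since the labels do not say what a number marks, and fits with that number as a block stand beside results they change. Alternatives were DESeq2 1.42.0, other scalings, no filter, the 2 compared groups alone, sums over transcripts, each library left out, and unrounded counts, the last chosen after seeing the data. The scripts were tested on simulated data.

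Named by rule were the 10 genes, Xist, Irf1, Rfx5, Psmb5, Psmb6, Psmb7, up to 4 called genes per list by adjusted p, and the 6 genes most like the class I profile. A further gene of this rule is not reported here. Genes and lists were chosen with earlier results of these data known. The comparisons of each line with WT share the WT libraries.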

Additional observations from a re-analysis of the deposited data

Results flagged for a closer look

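The direct comparison of line 2 with line 1 called several of the genes named above by edgeR (adjusted p under 0.05). Over all 12910 genes tested it called 1630. Values are given here for 9 of the named genes, and Mitf was also called, lower in line 2. Nlrc5 differed by -5.29 on the log2 scale (line 2 minus line 1), from 94.1 and 24.4 CPM in line 1 to 2.18 and 0.987 in line 2. Among the nonclassical class I genes H2-T24 differed by -4.37, H2-T10 by -1.90, H2-T9 by -1.51 and H2-T22 by -1.47, and the models of the last 2 overlap. With line 1 and line 2 fitted alone, H2-T10 (adjusted p = 0.0569 by edgeR) and H2-T9 (adjusted p = 0.068) were not called. With 1 library left out, H2-T24 ranged from -5.06 to -3.16 and H2-T10 from -2.37 to -1.30. H2-T9 then ranged from -1.95 to -0.91 and H2-T22 from -1.86 to -0.97. Irf9, a DNA-binding factor of the interferon response, differed by -1.83 and the matrix proteoglycan gene Dcn by -3.06. H2-DMb1, for a class II peptide exchange factor, differed by 4.64 and the lysozyme gene Lyz2 by 2.40, both higher in line 2.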

How the results depend on the processing

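Of the class I genes, 2 were called in line 1, 0 in line 2 and 1 between the lines. Replicate number as a block gave 5, 0 and 4, DESeq2 5, 0 and 3, no filter on low counts 7, 0 and 5, and the 2 compared groups alone 1, 1 and 1. Leaving out each library gave 0 to 9, 0 to 1 and 0 to 7. The main fit, the block and DESeq2 tested 9 of these genes, and no filter 10, with Psmb9. Psmb9 was also tested when line 1 replicate 2 was left out. Over all genes tested, no filter called 2664, 948 and 2361 of 19596, and DESeq2 1854, 581 and 1673 of 12910. The 2 groups alone called 1257 of 12660 in line 1, 790 of 12637 in line 2 and 1194 of 12749 between the lines. The number over all genes also moved with a library left out. Over the pathway lists 11, 0 and 6 genes were called, where 1846, 462 and 1630 of all 12910 genes tested were. The block gave 25, 4 and 23, no filter 19, 2 and 12, DESeq2 10 between the lines, the 2 groups alone 6 in line 1, and leaving out each library 1 to 19 in line 1 and 1 to 16 between the lines. Scaling, summing over transcripts and unrounded counts changed none of these counts by more than 1.5 times. Signs turned when a library was left out for H2-K1 in line 1 (-1.23 to 0.43) and between the lines (-0.84 to 0.82), H2-D1 in line 2 (-0.16 to 0.07), B2m in line 2 (-0.11 to 0.06), Tap2 in line 1 (-0.26 to 2.02) and between the lines (-1.26 to 1.00), and Psmb8 between the lines (-2.10 to 0.98). The same held for Rfx5 in line 1 (-0.13 to 0.23) and line 2 (-0.14 to 0.20), Psmb6 in line 1 (-0.15 to 0.04) and line 2 (-0.03 to 0.06), and, in line 2, Psmb7 (-0.09 to 0.09), H2-T24 (-0.41 to 0.09), H2-T22 (-0.13 to 0.03), Stat2 (-0.18 to 0.61) and H2-T9 (-0.15 to 0.14). In line 2, Psmb7 was -0.00 with the 2 groups alone, and H2-T9 was 0.01 with library totals alone and 0.01 without the filter. The mean immunoproteasome ratio, line 2 minus line 1, ranged from -2.29 to 0.21 without each library, turning without line 1 replicate 1. On the plus strand alone, GGANTTNCC matched 0 of the 8 promoters and CCAAT 3. The cause of these shifts was not tested. With 2 libraries a group, the permutation test cannot pass 0.05, and genes of few counts such as Psmb9 have wide errors.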

Other observations

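Levels of some other class I heavy chain genes and of Cd74 were not described above and are given as values, chosen after they were seen. H2-T23, which encodes the Qa-1 molecule that inhibitory receptors of natural killer cells read, had 23.2 and 16 CPM in the WT libraries, 108 and 36 in those of line 1, and 24 and 15.4 in those of line 2. H2-M3, which presents formylated peptides, had 11.1 and 9.28 CPM in the WT libraries, 23 and 15.8 in those of line 1, and 12.1 and 16.2 in those of line 2. H2-M3 and H2-T23 were thus higher in both line 1 libraries than in both WT libraries. That position was held by 25.4% of all genes tested. H2-M3 was also higher than WT in both line 2 libraries, as were 24.9% of all genes tested. The libraries of H2-Q4, a gene of the same list, overlapped those of WT in both lines. Cd74, the class II invariant chain, had 8.34 and 4.16 CPM in the WT libraries, 14.6 and 1.36 in those of line 1, and 13.3 and 6.91 in those of line 2, so replicate 1 was the higher library in each group for this gene too.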
